A study of Mus musculus with 10 samples.

Results

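The 44 genes described here encode hepatocyte transcription factors and nuclear receptors. They were taken by symbol from the locus names of the table of transcript levels, where each of the 44 was found once among 23535 loci with values. Of these 44, 41 reached a mean of 1 FPKM over the 6 libraries and were tested with all 10956 loci above that level. FPKM counts fragments per kilobase of transcript, scaled to the mapped fragments of the library, so levels of different genes can be set side by side per length. The other 3, Nr2f1, Hnf4g and Tox3, were below that level and are given by their values.

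Hepatocyte identity is held by a network of DNA-binding proteins that act on each other's genes and on shared enhancers. FOXA proteins open chromatin, HNF4A, C/EBP and ONECUT proteins bind beside them, and nuclear receptors adjust the output to bile acids, fatty acids, hormones and foreign compounds. Most of these receptors bind as a dimer with an RXR protein. SWI/SNF complexes, of which ARID1A is a subunit, move nucleosomes and can be recruited by such factors.

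The KO livers carried Arid1a Fl/Fl with Alb-cre (3 libraries), which expresses Cre recombinase from the albumin promoter in hepatocytes, and were compared with Arid1a Fl/Fl livers without Cre (WT, 3 libraries). Both groups carried the floxed allele, were a mix of C57/B6 and 129, and were sampled at postnatal day 90, 40 h after partial hepatectomy, the removal of part of the liver that makes the remaining hepatocytes divide. Another 2 KO and 2 WT libraries, taken before hepatectomy, are not analysed here. The labels do not say that each library came from a separate mouse, so the p-values may measure only the spread between libraries. Liver cells in which Alb-cre was not active keep the gene, and which cells these were was not measured. In whole liver, fewer cells of a type and less RNA per cell cannot be told apart.

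Arid1a itself (chromosome 4, 133679008 to 133753611, mm10) was 4.41, 5.57 and 6.15 FPKM in KO, against 8.68, 8.45 and 8.49 in WT. All KO libraries lay below all WT libraries, with a log2 difference of -0.59 (SE 0.15, limma adjusted p = 0.207, exact permutation p = 0.1). Each locus has 1 value, so the deleted exons were not measured apart. FPKM summed to 409142 to 495209 per library, and the absolute depth is unknown. Summed FPKM of 11 hepatocyte markers was 56219, 47387 and 47566 in KO, against 54310, 56896 and 54939 in WT. Much of each sum was Alb, at 29106, 16226 and 20933 FPKM in KO, against 22616, 29437 and 25141 in WT. For 2 of the 11 markers all KO libraries lay below all WT libraries, against 5.44% of all loci. For 0 of them all KO libraries lay above, against 16.7% of all loci. The 10 proliferation markers summed to 382, 66.5 and 482 FPKM in KO, against 50.5, 32.6 and 153 in WT. KO replicate 2 stood apart on the second principal component (27.3% of the variance), at -57.7, while the other 5 libraries lay between 3.7 and 24.5. Where values without this library are given below, they stand beside those with all 6.

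None of the 41 tested factors passed an adjusted p of 0.05 in the comparison of KO with WT, which asked how the loss of Arid1a changes liver transcripts during regeneration. The smallest adjusted p, 0.236, was that of Esr1. The count was also 0 among the factors under each of the 13 alternative settings, where the smallest adjusted p of a factor was 0.111. Over all 10956 loci limma called 13 (0.119%), and between 0 (without WT replicate 1) and 211 (without KO replicate 2) when 1 library was left out. At an unadjusted p under 0.05, 1 factor was higher and 3 were lower, against 11.2% and 3.99% of all loci. A difference of a factor below 2 could still be present in most of them: the 95% interval of the log2 difference lay within 1 unit (a factor of 2) of 0 for 32 of 41 factors (78.0%), against 73.1% of all loci. The 9 factors whose intervals reached past 1 unit on at least one side were Esr1, Foxa1, Rara, Onecut1, Cebpa, Atf5, Nr1i3, Esrra and Rxrg.

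The libraries of KO and WT did not overlap for 5 factors. Esr1, Prox1 and Ppara were lower in KO, 3 of 41 (7.32%) against 5.44% of all loci. Foxa1 and Ppard were higher in KO, 2 of 41 (4.88%) against 16.7% of all loci. For each of the 5, the exact two-sided permutation p over the 20 assignments of libraries was 0.1, the smallest this design allows. With 1 library left out, separate groups were commoner over all loci too. Without KO replicate 1, 5 factors (12.2%) were separate and higher, against 25.2% of all loci. Without WT replicate 3, 6 factors (14.6%) were separate and lower, against 7.65% of all loci, and without KO replicate 2, 9 factors (22.0%), against 10.6%. Leaving out KO replicate 1 or WT replicate 1 gave 3 (7.32%), against 8.69% and 7.58% of all loci. Leaving out KO replicate 3 or WT replicate 2 gave 4 (9.76%), against 7.23% and 8.16%. The median locus was 0.15 higher in KO on the log2 scale, and the median factor 0.02 higher, so the median factor lay 0.13 below the median locus. Relative to the median locus, 31 of 41 factors (75.6%) were lower in KO, against 50.0% of all loci on either side of it by construction. When the libraries were rescaled by median of ratios, no factor stayed separated on the higher side (7.87% of all loci did), and Foxa1 and Ppard then overlapped. On the lower side Esr1, Prox1 and Ppara stayed separated and Nfia joined them, 4 of 41 against 9.90% of all loci.

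**Figure D1:**
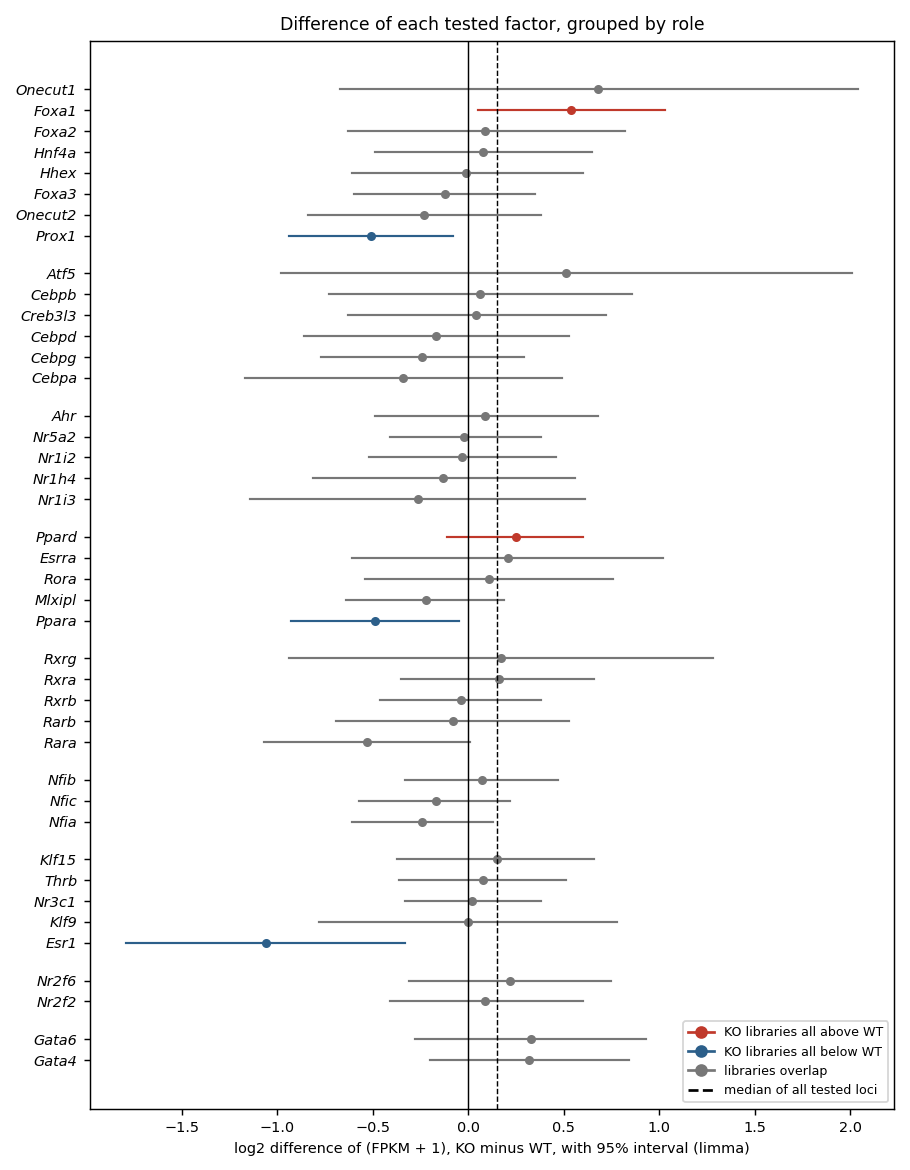
Log2 difference of FPKM + 1, KO minus WT, with its 95% limma interval for each of the 41 tested factors (x axis), grouped by role (y axis). The dashed line is the median of all tested loci at 0.15. The 2 red points mark factors whose KO libraries all lay above WT, and the 3 blue points those all below. Of the 41 intervals, 32 lie between -1 and 1.

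The sequences below are shown because these 5 factors alone had separate groups. Each is the 250 bases before the RefSeq start site (GRCm38.p6) nearest to the edge of the deposited locus, 5′ to 3′ on the gene's strand. Of the 44 factors, 36 had an entry. Capitals mark matches, on either strand, to TGTTTAC (FOXA site), to CCAAT (the box of that name) or to GGGCGG (GC box).
Esr1 (chr10:4611739-4611988, + strand): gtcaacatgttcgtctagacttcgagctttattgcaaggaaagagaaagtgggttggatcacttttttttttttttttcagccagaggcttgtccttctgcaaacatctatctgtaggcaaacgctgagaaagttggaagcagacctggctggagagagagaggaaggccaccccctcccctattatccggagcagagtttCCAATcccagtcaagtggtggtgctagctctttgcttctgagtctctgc
Prox1 (chr1:190170828-190171077, - strand): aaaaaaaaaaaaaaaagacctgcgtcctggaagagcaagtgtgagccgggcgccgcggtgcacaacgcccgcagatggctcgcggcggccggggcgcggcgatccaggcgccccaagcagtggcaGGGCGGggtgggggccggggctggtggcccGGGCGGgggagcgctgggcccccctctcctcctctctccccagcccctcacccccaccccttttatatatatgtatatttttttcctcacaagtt
Ppara (chr15:85735526-85735775, + strand): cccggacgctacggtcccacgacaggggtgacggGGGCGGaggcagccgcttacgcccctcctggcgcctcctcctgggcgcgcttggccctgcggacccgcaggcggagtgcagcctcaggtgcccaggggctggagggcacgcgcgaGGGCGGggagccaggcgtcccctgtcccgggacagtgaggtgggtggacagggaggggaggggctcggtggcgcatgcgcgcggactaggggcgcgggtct
Foxa1 (chr12:57546112-57546361, - strand): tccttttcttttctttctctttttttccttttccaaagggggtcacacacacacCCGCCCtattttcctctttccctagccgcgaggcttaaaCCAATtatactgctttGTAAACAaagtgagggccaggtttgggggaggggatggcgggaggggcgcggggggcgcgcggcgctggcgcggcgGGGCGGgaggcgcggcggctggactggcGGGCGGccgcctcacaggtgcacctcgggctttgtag
Ppard (chr17:28232504-28232753, + strand): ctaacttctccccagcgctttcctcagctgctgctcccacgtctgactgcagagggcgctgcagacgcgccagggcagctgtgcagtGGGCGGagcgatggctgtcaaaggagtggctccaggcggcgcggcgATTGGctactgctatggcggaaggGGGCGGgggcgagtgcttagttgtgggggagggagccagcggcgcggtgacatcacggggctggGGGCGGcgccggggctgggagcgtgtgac

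The Esr1 window holds 1 CCAAT box, 49 to 45 bases before the start, and has 47.6% G and C. The windows of Prox1 and Ppara each hold 2 GC boxes. They have 64.8% and 76.4% G and C, against a median of 52.4% over 32851 promoters. The Ppara start site lies 212 bases inside the deposited locus, so most of its window is within that locus. Foxa1, which encodes a FOXA protein, has a FOXA site on the opposite strand 141 to 135 bases before its start, besides 1 CCAAT box and 3 GC boxes. A FOXA site was found in 2 of the 36 factor promoters (5.56%), Foxa1 and Klf9, and in 3.17% of all promoters. GC boxes were found in 19 (52.8%) and in 32.7% of all, and CCAAT boxes in 15 (41.7%) and in 33.8% of all. The half-site AGGTCA that nuclear receptors bind was found in 3 (8.33%), Nr1h4, Nr5a2 and Thrb, and in 14% of all. An E-box (CACGTG) was found in 3 (8.33%), Klf15, Nr1i3 and Onecut1, and in 6.02% of all. The direct repeat of AGGTCA with 1 base between (DR1), an HNF4 site (CAAAGTCCA), a C/EBP site (TTGCGCAA) and a CREB site (TGACGTCA) were in 0 of 36, and in 0.0335%, 0.384%, 0.164% and 1.55% of all. The half-site lies inside the repeat, and no other motif contains another. These matches are letters in a window and say nothing of binding.

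Levels spanned several orders. Atf5 averaged 270 FPKM over the 6 libraries and Hnf4a 152, followed by Creb3l3 (98.2), Cebpb (85.2), Rxra (76.7), Cebpa (44.9) and Nr1i3 (39.6). Ranges of neighbours overlapped: Hnf4a lay between 114 and 196 FPKM and Atf5 between 117 and 724. In all, 27 of the 44 factors averaged at least 10 FPKM, and for 23 of these the interval lay within 1 log2 unit of 0, as for 68.9% of all loci at that level. For 25 of the 44, the highest library was less than 2 times the lowest. At the low end, Nr2f1, the COUP-TF paralogue of Nr2f2, was 0 to 0.293 FPKM and Hnf4g, the paralogue of Hnf4a, 0.0222 to 0.277 FPKM. Tox3, a high-mobility-group protein, was set to 0 in all libraries but WT replicate 2 (0.0494 FPKM).

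**Figure D2:**
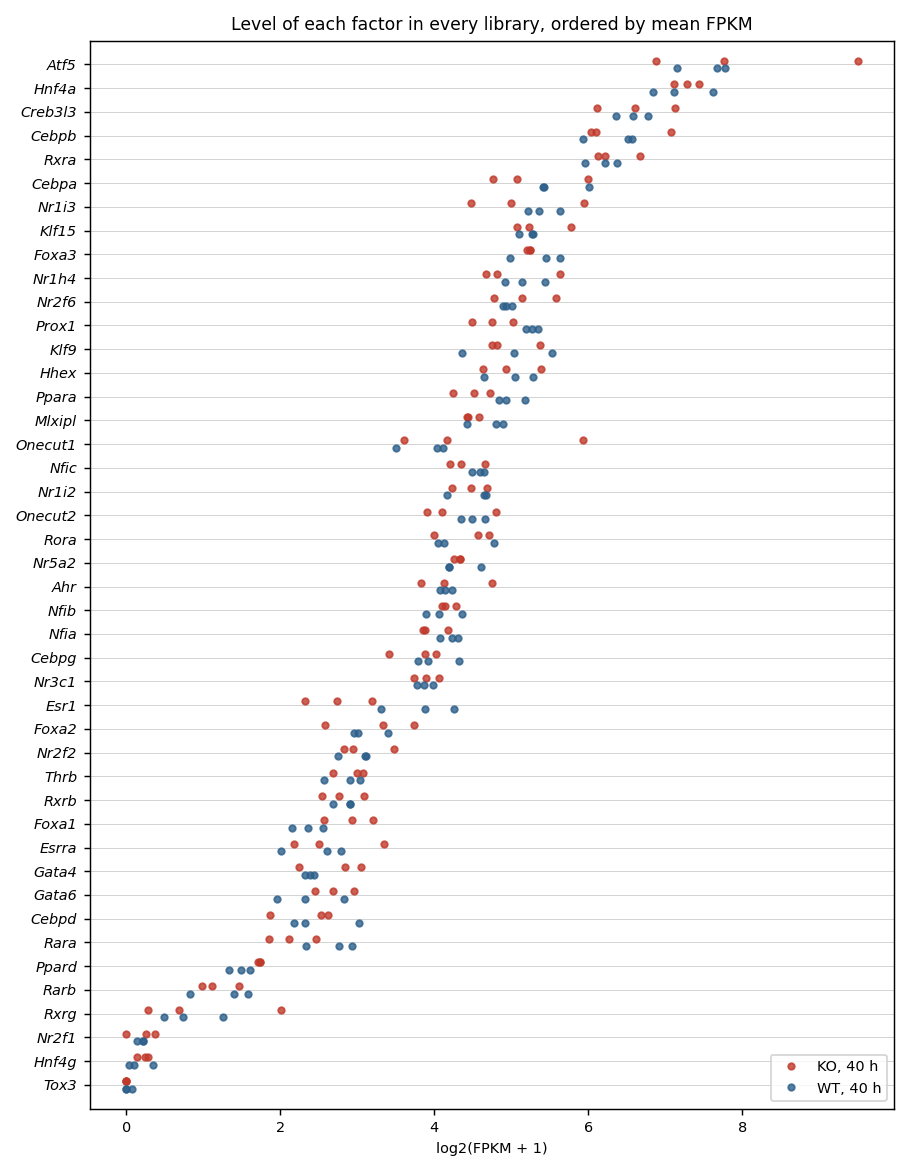
Level of each of the 44 factors in every library as log2(FPKM + 1) (x axis), ordered by mean (y axis), with KO points above WT points in each row. Atf5 and Hnf4a are the highest, and Nr2f1, Hnf4g and Tox3 lie near 0 in all 6 libraries.

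Among the identity factors, Hnf4a, the receptor-like factor that drives much of the hepatocyte programme, was 173, 138 and 155 FPKM in KO, against 138, 196 and 114 in WT. The WT range enclosed the KO range, and the log2 difference was 0.08 (SE 0.24, 95% interval -0.49 to 0.65). The deposited locus (chromosome 2, 163547188 to 163572907) starts near the downstream of its annotated start sites. RefSeq places start sites at 163506857 and 163547155, 40.3 kb apart, and the upstream one, used in pancreas and early liver in mouse, lies outside the locus. Each locus has 1 value, so transcripts of the upstream and downstream starts, which share exons inside the locus, were not measured apart.

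Foxa1 (chromosome 12, 57540632 to 57546121) was 6.60, 8.25 and 4.91 FPKM in KO, against 4.89, 3.44 and 4.15 in WT. The lowest KO library lay just above the highest WT library, with a mean of 6.58 ± 1.67 in KO and 4.16 ± 0.728 in WT (SD, n = 3 each). The log2 difference was 0.54 (SE 0.21, limma adjusted p = 0.309), and 0.39 relative to the median locus. Foxa2 was 4.97, 12.3 and 9.10 FPKM in KO, against 9.52, 6.79 and 7.06 in WT, and Foxa3, the most abundant of the 3 pioneer factors, was 35.9, 36.8 and 36.8 in KO, against 42.6, 48.7 and 30.6 in WT. Both overlapped. Foxa1 made up 13.9%, 14.4% and 9.65% of the summed FPKM of the 3 FOXA genes in KO, against 8.59%, 5.84% and 9.93% in WT, which overlap (exact permutation p = 0.2, adjusted over 8 ratios 0.533). Foxa3 made up 64.2% to 75.6% in KO and 73.2% to 82.6% in WT.

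Prox1 (chromosome 1, 190121777 to 190170680), a homeodomain protein that represses HNF4A and LRH-1 targets in hepatocytes and also marks lymphatic endothelium, was 25.9, 31.6 and 21.4 FPKM in KO, against 37.5, 35.4 and 39.7 in WT. Every KO library lay below every WT library. The means were 26.3 ± 5.11 in KO and 37.5 ± 2.14 in WT (SD, n = 3 each), a ratio of 0.700 and a log2 difference of -0.51 (SE 0.18, limma adjusted p = 0.290). Without KO replicate 2 the difference relative to the median locus was -0.77 in place of -0.66, with an adjusted p of 0.111, the lowest of any factor under any setting. Hhex, a homeodomain factor of liver bud and hepatocytes, was 29.5, 40.8 and 23.8 FPKM in KO, against 24.1, 37.8 and 32.1 in WT, with no separation.

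Onecut1 (HNF6; chromosome 9, 74861921 to 74889647) was 11.2, 59.9 and 16.9 FPKM in KO, against 16.3, 10.3 and 15.4 in WT. A single library, KO replicate 2, stood 4.27 times above the mean of the other 5, and the other libraries of both groups overlapped. The log2 difference was 0.68 (SE 0.57), or 0.54 relative to the median locus, and without KO replicate 2 it was -0.12 relative to it. Its paralogue Onecut2 was 16.1, 27.0 and 14.0 FPKM in KO, against 19.3, 24.2 and 21.5 in WT, so its KO replicates 1 and 3 lay below all WT libraries. The ratio of Onecut1 to Onecut2 was 0.697, 2.22 and 1.21 in KO, against 0.842, 0.427 and 0.714 in WT (exact permutation p = 0.3, adjusted over 8 ratios 0.600).

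**Figure D3:**
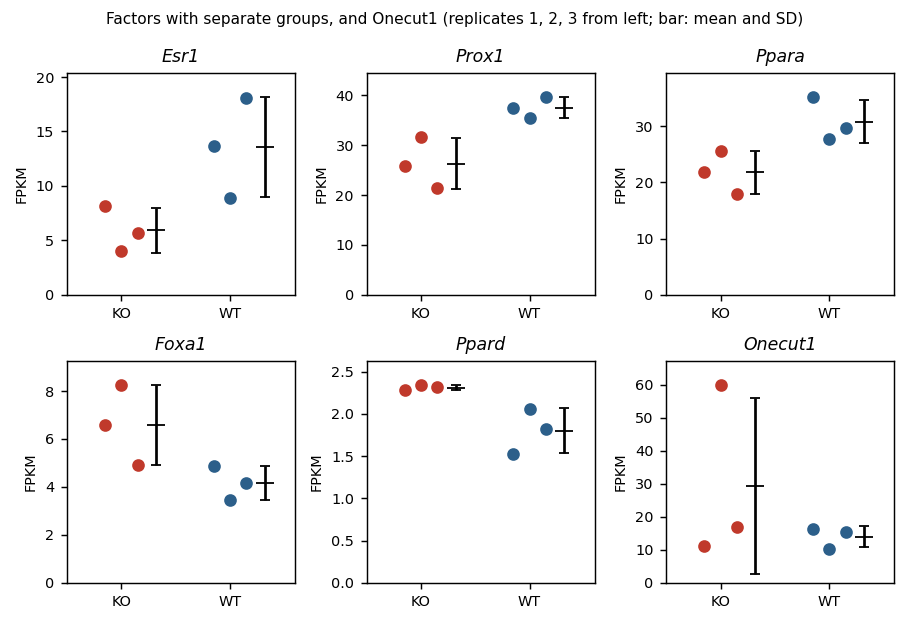
FPKM of the 5 factors whose groups were separate, and of Onecut1, in each library, with KO on the left and WT on the right of each panel. Points are replicates 1 to 3 from the left and bars give the mean and SD of 3 libraries. Esr1, Prox1 and Ppara lie lower in KO and Foxa1 and Ppard higher, and the KO bar of Onecut1 rests on replicate 2 at 59.9 FPKM.

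The C/EBP, ATF and CREB proteins bind DNA through a basic leucine zipper. Cebpa, which drives metabolic genes and holds back division, was 26.2, 63.1 and 32.6 FPKM in KO, against 63.4, 41.7 and 42.1 in WT. Cebpb, an acute-phase and regeneration factor, was 64.8, 67.5 and 134 FPKM in KO, against 94.1, 90.5 and 60.0 in WT. In KO replicates 1 and 3 Cebpa lay below all WT libraries, and in KO replicate 2 it lay near the highest of them. The ratio of Cebpa to Cebpb was 0.404, 0.935 and 0.244 in KO, against 0.673, 0.461 and 0.701 in WT. These ratios overlapped (exact permutation p = 0.6, adjusted over 8 ratios 0.686), and the KO range held both the lowest and the highest value. Cebpa was -0.49 relative to the median locus, and -0.82 without KO replicate 2 (adjusted p = 0.209).

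Cebpd, a partner induced in the acute phase, was 2.66, 5.14 and 4.75 FPKM in KO, against 3.53, 7.11 and 4.0 in WT. Cebpg, which lacks an activation domain, was 13.7, 15.2 and 9.69 FPKM in KO, against 14.1, 19.0 and 12.8 in WT. Creb3l3 (CREBH), a membrane-bound factor cleaved on fasting or stress, was 96.6, 139 and 68.3 FPKM in KO, against 94.6, 109 and 81.1 in WT. All 3 overlapped between groups. Atf5 (chromosome 7, 44812256 to 44816658), which acts in stress responses, was 216, 724 and 117 FPKM in KO, against 203, 219 and 141 in WT, so that KO replicate 2 was 4.04 times the mean of the other 5. Atf5 overlaps Nup62, which was 8.39, 4.73 and 11.8 FPKM in KO, against 7.18, 4.91 and 6.09 in WT, and the read-through locus Nup62-il4i1, which was 2.10, 8.33 and 1.77 in KO, against 2.24, 2.08 and 1.77 in WT. KO replicate 2 was the lowest library for Nup62 and the highest for Nup62-il4i1. These 2 loci start at 44816420 and 44816370, near the end of Atf5 at 44816658. Whether strand was kept is not known, so reads in the stretches they share with Atf5 cannot be told apart. The same holds for the stretches that the other 9 factors share with another locus: Cebpd, Esrra, Klf9, Nfia, Nr1i3, Nr2f1, Nr2f2, Ppard and Rora. The locus that overlaps Nfia, E130114P18Rik, was set to 0 in all libraries. The difference of Atf5 was 0.37 relative to the median locus, and -0.33 without KO replicate 2.

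**Figure D4:**
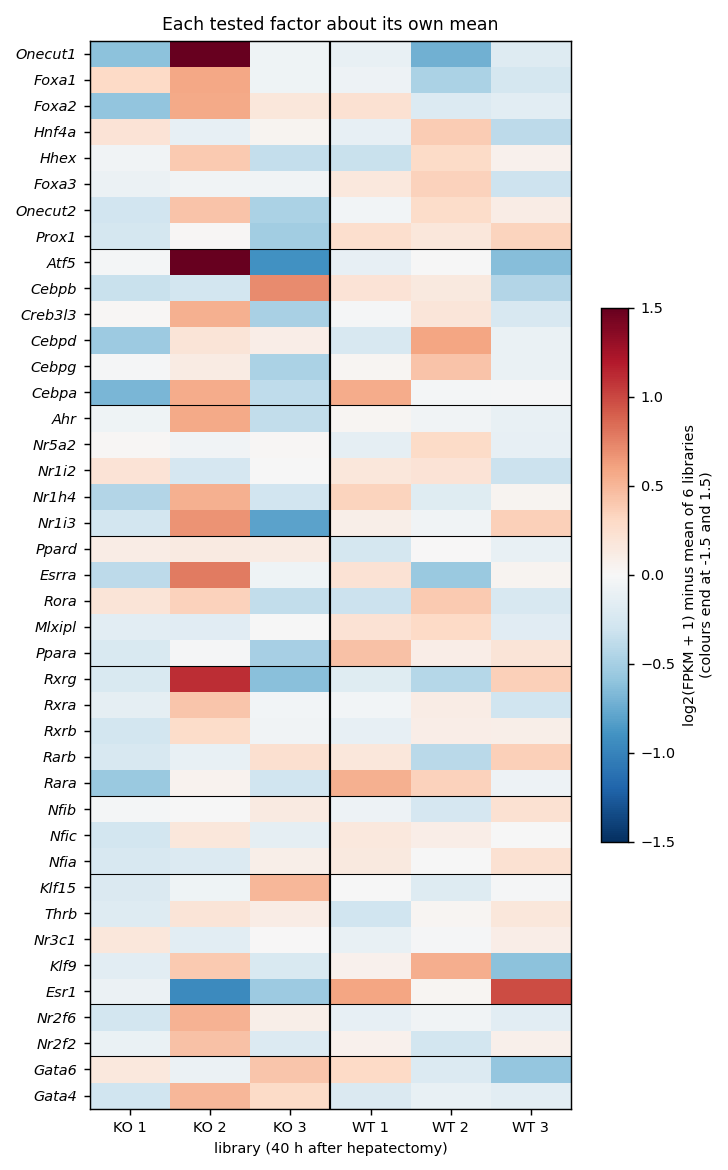
Each tested factor (rows, grouped by role) in each library (columns, KO on the left) as log2(FPKM + 1) minus its mean over the 6 libraries, in colours that end at -1.5 and 1.5. KO replicate 2 is the highest library for 20 of 41 factors, and KO replicate 1 or 3 is the lowest for 22.

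Within KO the libraries were not alike. KO replicate 2 was the highest of the 6 libraries for 20 of 41 factors (48.8%), against 32.4% of all loci, and the lowest for 2 (4.88%), against 12.7%. KO replicate 1 or 3 was the lowest for 22 (53.7%), against 25.2% of all loci. These are also the KO libraries with 382 and 482 summed FPKM of proliferation markers, against 66.5 in KO replicate 2. The part of proliferation in the factor levels was not tested. Summed over the 44 factors, FPKM was 1166, 1965 and 1112 in KO, against 1286, 1368 and 1089 in WT. Without KO replicate 2, 9 factors lay below all WT libraries, against 10.6% of loci: Esr1, Prox1 and Ppara, joined by Cebpa, Nfic, Nr1h4, Nr1i3, Onecut2 and Rara. At an unadjusted p under 0.05, 7 factors were then lower, against 4.76% of loci, and 0 passed the adjusted threshold, which 211 loci (1.93%) did. The median factor then lay 0.29 below the median locus.

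The receptors for bile acids, sterols and foreign compounds did not separate KO from WT. Nr1h4 (FXR), the bile acid receptor, was 24.4, 48.7 and 27.1 FPKM in KO, against 42.2, 29.2 and 34.3 in WT. Nr5a2 (LRH-1), its partner in bile acid synthesis, was 19.2, 18.2 and 19.2 FPKM in KO, against 17.2, 23.4 and 17.3 in WT, and its 95% interval ran from -0.41 to 0.38. Nr1i2 (PXR), which senses foreign compounds, was 24.7, 17.8 and 21.2 FPKM in KO, against 24.0, 24.6 and 16.9 in WT. All 3 overlapped between groups, and Nr5a2 was nearly constant in KO. Nr1i3 (CAR), the other xenobiotic receptor, was 31.0, 60.7 and 21.2 FPKM in KO, against 40.2, 36.1 and 48.6 in WT. It overlaps Tomm40l, which was 12.9, 25 and 10.7 FPKM in KO, against 16.6, 15.5 and 21.0 in WT. The order of libraries was the same in both loci, and reads in the stretch they share are uncertain. Nr1i3 over Nr1i2 was 0.999 to 3.40 in KO and 1.47 to 2.87 in WT. Ahr, the aryl hydrocarbon receptor, was 16.5, 26.0 and 13.2 FPKM in KO, against 17.7, 16.6 and 15.9 in WT.

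Among receptors and sensors of fatty acids and energy, Ppara (chromosome 15, 85735564 to 85806851), the fasting receptor that drives fatty acid oxidation, was 21.8, 25.5 and 18.0 FPKM in KO, against 35.2, 27.7 and 29.6 in WT. All KO libraries lay below all WT libraries. The means were 21.8 ± 3.78 in KO and 30.8 ± 3.91 in WT (SD, n = 3 each), a ratio of 0.706 and a log2 difference of -0.49 (SE 0.18, limma adjusted p = 0.308). Ppard (chromosome 17, 28232754 to 28301469), its broadly expressed paralogue, was 2.28, 2.34 and 2.32 FPKM in KO, against 1.53, 2.06 and 1.82 in WT. Here the KO libraries lay above all WT libraries, with a log2 difference of 0.25 (SE 0.15, limma adjusted p = 0.451), and the groups overlapped after rescaling. Ppard overlaps a locus named 1810013A23Rik, which was set to 0 in all libraries but KO replicate 3 (0.998 FPKM).

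The ratio of Ppara to Ppard, which needs no scaling between libraries, was 9.59, 10.9 and 7.73 in KO, against 23.1, 13.5 and 16.2 in WT. These ratios cannot overlap, since Ppara was lower and Ppard higher in every KO library, so they add no test to those values. The ratio of Ppara to Rxra, its dimer partner, was 0.317, 0.252 and 0.245 in KO, against 0.481, 0.339 and 0.482 in WT, with no overlap (exact permutation p = 0.1, the smallest possible, and 0.400 adjusted over the 8 ratios). Esrra, the mitochondrial regulator ERR-alpha, was 3.53, 9.20 and 4.68 FPKM in KO, against 5.90, 3.04 and 5.11 in WT. Rora, a clock and lipid receptor, was 22.8, 25.3 and 15 FPKM in KO, against 15.6, 26.3 and 16.5 in WT. Mlxipl (ChREBP), the glucose-sensing factor of lipid synthesis, was 20.7, 20.5 and 23.0 FPKM in KO, against 27.0, 28.7 and 20.4 in WT. These 3 overlapped.

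RXR and RAR proteins are receptors of retinoic acids, and RXR is the shared partner of most receptors above. Rxra, the main hepatocyte RXR, was 68.8, 101 and 73.4 FPKM in KO, against 73.3, 81.6 and 61.4 in WT, and took 90.6% to 92.7% of the summed RXR FPKM in KO and 88.6% to 92.3% in WT. Rxrb was 4.83, 7.49 and 5.79 FPKM in KO, against 5.46, 6.52 and 6.47 in WT. Rxrg was 0.610, 3.04 and 0.216 FPKM in KO, against 0.661, 0.401 and 1.40 in WT, where KO replicate 2 was again highest. Rara (chromosome 11, 98937696 to 98974942) was 2.60, 4.52 and 3.32 FPKM in KO, against 6.65, 5.76 and 4.03 in WT, a log2 difference of -0.53 (SE 0.23, limma adjusted p = 0.332). KO replicate 2 exceeded WT replicate 3, so its groups overlapped. Rarb, the stellate-cell RAR whose gene retinoic acid induces, was 0.985, 1.17 and 1.77 FPKM in KO, against 1.65, 0.775 and 2.0 in WT.

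Esr1 (chromosome 10, 4612046 to 5003761), the oestrogen receptor alpha of hepatocytes, had the lowest difference of the 41. It was 8.11, 4.01 and 5.64 FPKM in KO, against 13.7, 8.91 and 18.1 in WT. The groups were separate, and the highest KO library lay close to the lowest WT library. The means were 5.92 ± 2.07 in KO and 13.5 ± 4.57 in WT (SD, n = 3 each), a ratio of 0.438 and a log2 difference of -1.06 (SE 0.31, 95% interval -1.79 to -0.33, limma adjusted p = 0.236). Relative to the median locus it was -1.21, and between -1.46 and -0.97 over the alternatives. Esr1 and Nr3c1 were the 2 factors lowest in KO replicate 2, where Esr1 stood at 0.369 times the mean of the other 5 libraries.

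The other hormone receptors and their KLF factors overlapped between groups. Nr3c1, the glucocorticoid receptor, was 15.7, 12.3 and 13.9 FPKM in KO, against 12.7, 13.6 and 14.8 in WT. Its interval, -0.33 to 0.38, was among the narrowest, and its highest library was 1.28 times its lowest. Thrb, the main thyroid hormone receptor of liver, was 5.41, 7.42 and 6.95 FPKM in KO, against 4.95, 6.47 and 7.23 in WT. Klf9, a target of both hormones, was 27.2, 40.3 and 26.0 FPKM in KO, against 31.9, 45.2 and 19.6 in WT. Klf15, a glucocorticoid-induced regulator of amino acid breakdown, was 32.7, 36.5 and 54.0 FPKM in KO, against 37.8, 33.2 and 37.7 in WT. For Klf9 the WT range enclosed the KO range, and for Klf15 the KO range enclosed the WT range.

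NFI proteins are dimeric factors that bind hepatocyte enhancers. Nfia was 13.4, 13.7 and 17.1 FPKM in KO, against 17.8, 15.9 and 18.9 in WT, overlapping until libraries were rescaled. Nfic was 17.5, 24.2 and 19.4 FPKM in KO, against 24.1, 23.1 and 21.4 in WT, and Nfib 16.2, 16.6 and 18.4 in KO, against 15.7, 13.8 and 19.6 in WT. The COUP-TF orphan receptor Nr2f6 was 26.3, 46.8 and 34.2 FPKM in KO, against 29.4, 31.1 and 28.7 in WT, and Nr2f2, which is also expressed in endothelium, 6.67, 10.1 and 6.09 in KO, against 7.55, 5.74 and 7.65 in WT. All of these overlapped, with KO replicate 2 the highest for both receptors.

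Gata4 and Gata6 are zinc-finger factors of liver development that other liver cells also express. Gata4 was 3.74, 7.25 and 6.15 FPKM in KO, against 4.02, 4.42 and 4.25 in WT, and Gata6 was 5.46, 4.46 and 6.74 in KO, against 6.12, 4.02 and 2.87 in WT. The 11 endothelial markers, which include Pecam1 and Cdh5, summed to 64.0, 93.3 and 94.0 FPKM in KO, against 62.3, 91.6 and 77.1 in WT. In KO, Gata4 and these markers were both lowest in replicate 1, and the part of endothelium in Gata4 was not tested. Cdh5 was separate and higher. Stellate markers summed to 133, 169 and 116 FPKM in KO, against 150, 158 and 147 in WT. Among them Reln was separate and higher, at 16.7, 21.9 and 14.6 FPKM in KO, against 8.88, 9.51 and 10.5 in WT. Colec11 was separate and lower, at 8.93, 12.1 and 11.4 FPKM in KO, against 15.8, 13.6 and 18.2 in WT. Kupffer cell markers summed to 221, 168 and 132 in KO, against 145, 178 and 116 in WT. Of these only Marco was separate, and higher, at 16.9, 27.6 and 11.8 FPKM in KO, against 9.84, 8.99 and 5.11 in WT. Over all loci 16.7% were separate and higher and 5.44% separate and lower. Of 8 cholangiocyte markers, 3 were above the filter, and Cftr was between 0 and 0.157 FPKM. Sox9, named after its values were seen, was below the filter. It was 0.0621, 0.371 and 0.242 FPKM in KO, against 0.920, 1.83 and 0.744 in WT, without overlap. Of the lymphocyte and neutrophil markers only S100a8 and S100a9 were above it.

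A list of 53 further nuclear receptors, liver factors and coregulators was read beside the 44. Of the 43 tested, 0 were called, 0 were separate on the higher side (16.7% of all loci were) and 4 on the lower side (5.44% of all loci were), and their median lay 0.21 below the median locus. Pparg, the third PPAR and a driver of fat storage, was 1.78, 0.714 and 0.449 FPKM in KO, against 4.87, 3.57 and 5.81 in WT, with no overlap (log2 difference -1.58, SE 0.28, limma adjusted p = 0.133). Nr2c1, an orphan receptor, was 2.48, 2.56 and 1.55 FPKM in KO, against 3.52, 4.18 and 2.85 in WT. Tbx3, a factor of pericentral hepatocytes, was 4.60, 7.88 and 1.81 FPKM in KO, against 13.6, 10.3 and 7.31 in WT, and Ppargc1a, a coactivator of ERR-alpha and PPAR-alpha, 2.45, 1.37 and 2.90 in KO, against 4.57, 2.63 and 4.45 in WT. The Nr2c1 groups were separate, while those of Tbx3 and Ppargc1a overlapped. The remaining separate genes, Xbp1 and Srebf2, were named after their values were seen. Xbp1, a secretory stress factor, was 101, 81.9 and 68.3 FPKM in KO, against 108, 119 and 108 in WT. Srebf2, the sterol-sensing factor, was 21.3, 13.7 and 21.0 FPKM in KO, against 24.5, 24.4 and 22.3 in WT.

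Genes that these factors are known to regulate were set beside them in 16 lists, which share some genes. With all libraries, limma called 0 listed genes. At an unadjusted p under 0.05 the CAR and PXR list had 5 genes higher and 3 lower, and every other list at most 3 in all. Separate genes are counted below against 16.7% of all loci higher and 5.44% lower. Hnf4a, level within its spread, stood beside 24 listed target genes. Of these, 5 were separate and lower in KO, 0 separate and higher, and 20 below the median locus. Their median was -0.25 relative to it (-0.38 without KO replicate 3 and -0.17 without KO replicate 2). Of the 11 hepatocyte markers, some of them on this list, 2 were separate and lower and 0 separate and higher. Among these markers 9 lay below the median locus, and their median was -0.22, so such a shift was not particular to the listed targets. Ces3a, a liver carboxylesterase, was 41.4, 11.9 and 37.1 FPKM in KO, against 141, 122 and 145 in WT (log2 difference -2.31, SE 0.45, limma adjusted p = 0.136). It was called when KO replicate 2 was left out (adjusted p = 0.0171). The part of Hnf4a in the level of Ces3a was not tested. Pklr, a pyruvate kinase listed as a target too, was 38.4, 30.8 and 22.4 FPKM in KO, against 18.9, 24.2 and 17.9 in WT.

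**Figure D5:**
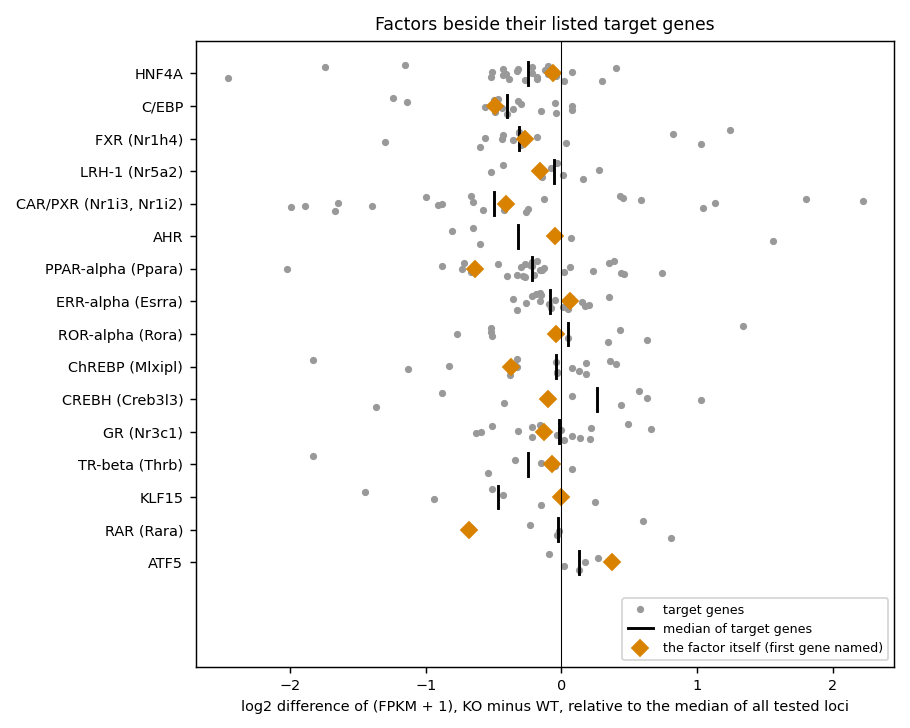
Log2 difference of FPKM + 1, KO minus WT, relative to the median of all tested loci (x axis), for the listed target genes of each factor (grey points, bar at their median) and for the factor itself (orange diamond), by list (y axis). The C/EBP diamond is Cebpa and the CAR and PXR diamond is Nr1i3. Hnf4a lies at -0.06 beside targets whose median is -0.25, and Rara at -0.68 beside targets whose median is -0.03.

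The C/EBP list had 0 separate genes higher and 4 lower among 17, and a median of -0.40 (-0.26 without WT replicate 1). Fgg, a fibrinogen chain, was 5572, 5293 and 4152 FPKM in KO, against 7327, 6354 and 6258 in WT, and complement C3 was 3437, 2765 and 3096 in KO, against 4404, 3666 and 3734 in WT, both without overlap. Of 14 tested FXR targets 1 was separate and higher and 2 lower, with a median of -0.31 (-0.14 without KO replicate 3 and -0.20 without WT replicate 1). Fetub, fetuin-B, was 122, 139 and 85.0 FPKM in KO, against 257, 253 and 248 in WT (log2 difference -1.15, SE 0.22, adjusted p = 0.136), and was called without KO replicate 2 (adjusted p = 0.0413). Pltp, the phospholipid transfer protein, was 22.7, 14.9 and 16.5 FPKM in KO, against 9.50, 9.21 and 7.19 in WT (log2 difference 0.97, SE 0.20, adjusted p = 0.164). Targets on one list thus lay on both sides of WT while Nr1h4 overlapped. Of 8 LRH-1 targets none was separate, and their median was -0.05 (-0.22 without KO replicate 1 and 0.10 without WT replicate 3).

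The 22 tested CAR and PXR targets lay on both sides of WT, with 4 separate and higher, 3 separate and lower and a median of -0.50 (-0.22 without KO replicate 2). The epoxide hydrolase gene Ephx1 was 215, 204 and 184 FPKM in KO, against 62.1, 113 and 78.9 in WT (log2 difference 1.28, SE 0.25, adjusted p = 0.136). Ces2a, a carboxylesterase, was 35.1, 28.2 and 21.5 FPKM in KO, against 8.77, 11.7 and 15.4 in WT. The glutathione transferase Gstm3 was 127, 27.1 and 85.7 FPKM in KO, against 14.2, 16.8 and 18.9 in WT, and was called without KO replicate 2 (adjusted p = 0.0165). Gsta2, another glutathione transferase, was 8.74, 3.41 and 14.2 FPKM in KO, against 0.0453, 0.491 and 2.05 in WT, and its adjusted p without that library was 0.0475. The 3 separate and lower genes were named after their values were seen. Cyp3a11, a main PXR target in mouse, was 327, 87.6 and 188 FPKM in KO, against 516, 548 and 443 in WT (log2 difference -1.51, SE 0.45, adjusted p = 0.248). Relative to the median locus it was -1.65, and -1.13 without KO replicate 2. Abcc3, an organic anion exporter, was 4.58, 8.60 and 2.32 FPKM in KO, against 10.9, 14.2 and 22.4 in WT, and Por, the electron donor of cytochrome P450 enzymes, was 92.4, 86.5 and 119 in KO, against 252, 135 and 165 in WT. Glutathione transferase and Cyp3a genes have near-identical copies, so the division of reads among them is uncertain. Of 6 tested AHR targets 1 was separate and higher and 2 lower, with a median of -0.32 (0.19 without KO replicate 2). The higher one, Gsta1, was 5.97, 0.546 and 6.08 FPKM in KO, against 0.404, 0.318 and 0.186 in WT. Ugt1a6a, a glucuronosyl transferase, was 8.59, 10.7 and 11.4 FPKM in KO, against 13.7, 17.4 and 19.6 in WT. The other lower one, Ugt1a6b, was 28.5, 32.2 and 27.6 in KO, against 32.8, 42.6 and 53.1 in WT. The loci of Ugt1a6a and Ugt1a6b overlap, so they are not independent targets.

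Ppara lay lower in KO, and of its 28 tested targets 20 lay below the median locus and 0 were separate and higher, with a median of -0.22. That median was -0.50 without KO replicate 2 and -0.40 without WT replicate 3, and it turned to 0.13, with 12 of 28 below, without KO replicate 3. Cyp4a10, a fatty acid hydroxylase, was 95.5, 133 and 11.1 FPKM in KO, against 216, 322 and 109 in WT, overlapping through KO replicate 2. The ChREBP list, with 17 tested, had 2 separate genes, both lower. Its median was -0.04, with 6 genes above and 11 below the median locus. That median was 0.01 without KO replicate 2 and 0.02 without WT replicate 3. Pklr, on this list too, overlapped between groups and lay 0.40 above the median locus. Khk, ketohexokinase, was 43.2, 48.4 and 33.2 FPKM in KO, against 71.3, 57.2 and 71.9 in WT, and Fasn, fatty acid synthase, was 24.0, 8.14 and 21.2 in KO, against 35.4, 29.4 and 34.0 in WT. The 18 ERR-alpha targets had 1 separate and higher, and a median of -0.09 (-0.23 without WT replicate 2 and 0.04 without WT replicate 3). The 9 ROR-alpha targets had 1, Sult1e1, the oestrogen sulfotransferase, at 8.89, 14.6 and 12 FPKM in KO, against 6.20, 0.629 and 6.67 in WT.

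Beside Rara, 4 of 6 tested targets lay below the median locus, and their median was -0.03 (-0.11 to 0.10 with 1 library left out, turning without KO replicate 1, KO replicate 3 or WT replicate 2). Of 16 glucocorticoid receptor targets 0 were separate and higher and 1 lower, with 8 on each side of the median locus. Of 6 thyroid hormone targets none was separate, and 5 lay below the median locus, beside a Thrb at -0.07 relative to it. The median of the 6 was -0.24 (0.02 without KO replicate 3 and -0.51 without WT replicate 3). Of 6 KLF15 targets 1 was separate, Prodh, proline dehydrogenase, at 5.38, 4.67 and 6.07 FPKM in KO, against 16.6, 8.38 and 22.4 in WT (log2 difference -1.31, SE 0.33, adjusted p = 0.207), beside a Klf15 at 0.00 relative to the median locus. The median of the 6 was -0.47, and -0.06 without KO replicate 2. Of 8 CREBH targets 1 was separate and lower, Apcs, serum amyloid P, at 1151, 762 and 305 FPKM in KO, against 1882, 1447 and 1254 in WT, while 5 of 8 lay above the median locus. Their median was 0.26, and -0.12 with 4 of 8 above without KO replicate 2. Of 5 genes of the mitochondrial stress response set beside Atf5, none was separate and 4 lay above the median locus, and 3 did without KO replicate 2 or without WT replicate 2.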

How the data were processed

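Transcript levels were measured by RNA sequencing of frozen mouse liver. Per the labels' protocols, RNA was isolated with Trizol and miRNeasy columns, and sequencing libraries followed standard Illumina or Nugen protocols. The table gives FPKM per locus, per the file headers, as the authors deposited it. The submitters' processing notes name TopHat, mm9 and mm10 without roles; locus positions are on mm10, and are given here counted from 1. FPKM is relative to each library's total, so abundant transcripts can shift all others, and no source used here says how reads of overlapping loci were divided. No read totals are given in the sources used here, so no counting interval was computed. All 6 headers name the same run.

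Of 23847 loci, 312 marked LOWDATA were left out. Values of 0, listed as 0.001, were set to 0. Columns without a sample numbered 0. KO was compared with WT on log2(FPKM + 1) in limma 3.58.1 (R 4.3.3, trend on), two-sided, for loci with a mean of at least 1 FPKM, with Benjamini-Hochberg adjustment over all 10956. Calls were made below an adjusted p of 0.05. A log2 difference on this scale understates changes of low genes. Ratios were compared by exact permutation over 20 assignments. Relative values subtract the median of all tested loci.

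All 44 members are named. Up to 4 genes with the smallest p may be named from each target list and the list of other factors. From marker lists, up to 2 or those at 0 may be named. Xbp1, Srebf2, Cyp3a11, Abcc3, Por, Sox9 and Alb were added after their values were seen. The members, lists and rules were chosen with earlier results of these data known. Alternatives were a pseudocount of 0.1, no filter, a mean of at least 5 FPKM, median-of-ratios and quantile scaling, no trend, a replicate block and leaving out each library.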

Additional observations from a re-analysis of the deposited data

How the results depend on the processing

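Over 13 alternatives, 0 of 41 factors passed the adjusted threshold, with a smallest adjusted p of 0.111 (Prox1, without KO replicate 2). Over all loci the count of 13 was 6 without a filter and 5 at a mean of at least 5 FPKM, where 16962 and 6672 loci were tested. Leaving out 1 library gave 0 to 211, namely 0 without WT replicate 1 (limma, 940 at an unadjusted p under 0.05), 1 without KO replicate 3, 2 and 3 without WT replicates 2 and 3, and 211 without KO replicate 2. A replicate block gave 47 calls over all loci, 0 of them factors. The numbers did not pair the libraries, since deviations of same-numbered KO and WT libraries correlated at -0.08, 0.16 and 0.16, and KO replicate 1 correlated best with WT replicate 3 (0.17). Of factors with separate groups, the 2 higher in KO became 1 at 5 FPKM and 0 after either rescaling, and 2 to 5 with 1 library left out, when 20.6% to 28.4% of all loci were separate and higher (16.7% with all libraries). The 3 lower became 3 to 9, when 7.23% to 10.6% of all loci were separate and lower (5.44% with all libraries). The median relative to all loci was -0.29 to -0.10 with 1 library left out. Causes of these shifts were not tested.

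Of 526 factor values relative to the median locus, 477 kept their direction and 49 turned. In 22 factors none turned, Esr1, Prox1, Ppara, Rara, Foxa1 and Ppard among them. Without a filter the relative value was 0.02 for Hnf4a, 0.03 for Foxa2, Ahr and Nr2f2, 0.04 for Rora, 0.00 for Nfib, 0.08 for Klf15 and 0.01 for Thrb. Rxra was -0.01 with a pseudocount of 0.1 and after median-of-ratios rescaling and 0.00 at 5 FPKM, and Rxrg -0.07 with a pseudocount of 0.1. With 1 library left out, 19 factors turned. Hnf4a ranged from -0.26 to 0.15, Foxa2 from -0.29 to 0.25, Cebpb from -0.43 to 0.10, Onecut1 from -0.12 to 1.0 and Rxra from -0.13 to 0.11. Rxrg ranged from -0.46 to 0.37, Rora from -0.15 to 0.19, Esrra from -0.25 to 0.30, Ahr from -0.29 to 0.14 and Nfib from -0.19 to 0.04. Klf15 ranged from -0.22 to 0.13, Klf9 from -0.47 to 0.13, Creb3l3 from -0.33 to 0.14, Nr2f2 from -0.22 to 0.06 and Nr2f6 from -0.11 to 0.26. Atf5 ranged from -0.33 to 0.94, Gata6 from -0.05 to 0.43, Thrb from -0.18 to 0.04 and Hhex from -0.33 to 0.01.
Depth behind the FPKM is unknown, so factors near 1 FPKM, such as Rxrg and Rarb, carry counting error that cannot be given. The call of Ces3a, Fetub, Gsta2 and Gstm3 rests on leaving out KO replicate 2.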
